A study of Mus musculus with 6 samples.

Results

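Cst3, the gene of the secreted protease inhibitor cystatin C, and 9 cathepsin genes (Ctss, Ctsd, Ctsb, Ctsl, Ctsz, Ctsa, Ctsc, Ctsh and Ctsf) were taken by symbol from a deposited count table of 48587 genes. All 10 were in the table, and all 10 were among the 10394 genes that passed the filter on low counts. The table holds microglia, the resident macrophages of the brain, sorted from C57BL/6 mice at postnatal day 42. There were 3 libraries from Lyl1 KO animals (knockout) and 3 from wildtype animals (wild type), and both groups had the same strain and age. Lyl1 is a blood-cell regulator whose protein binds DNA through a basic helix-loop-helix domain, and the comparison asks what its loss does to microglial gene expression. The labels give neither the design of the Lyl1 allele, the markers of the sort, the sexes nor whether each library came from its own animal. All p-values here therefore measure the spread between these libraries, which may be technical.

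Cathepsins are the main proteases of endosomes and lysosomes. They are made as inactive precursors, carried to the lysosome and activated there by cleavage. Ctss, Ctsb, Ctsl, Ctsz, Ctsc, Ctsh and Ctsf encode cysteine proteases of the papain family, Ctsd an aspartic protease and Ctsa a serine carboxypeptidase. Cystatin C binds the active site cleft of papain-like enzymes and holds them in check outside the cell, and it does not inhibit aspartic or serine cathepsins. In microglia these enzymes digest engulfed material, and Ctsb, Ctsd, Ctsl and Ctsz are known members of the set of genes that microglia raise around amyloid plaques.

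Total counts ran from 19205948 to 27305558 in knockout libraries and from 12753945 to 27378614 in wild-type libraries. The targeted gene Lyl1 had 205, 237 and 410 reads in knockout libraries 1 to 3, against 683, 1399 and 839 in wild-type libraries 1 to 3, so it was lower in every knockout library without being absent. The libraries were uneven in the number of genes with a read, 13085, 14923 and 15531 in knockout and 13045, 12827 and 15652 in wild type. Xist stood at 349, 0.203 and 412 CPM (read counts relative to library size, scaled between libraries) in knockout libraries 1 to 3 and at 0.382 to 1.41 CPM in wild type, and since Xist is expressed in females, sex was not balanced between the genotypes. The 8 microglia markers were all present and summed to between 49955 and 54873 CPM in knockout and between 53594 and 56552.5 CPM in wild type. Among markers of other cells, Gfap and Aldoc of astrocytes, Snap25 of neurons and Cldn5 of endothelium had no read in any library, but others of the same lists did. The 3 endothelial markers summed to 27.2 to 61.6 CPM in knockout and 26.1 to 154 CPM in wild type, nearly all from Pecam1. The 3 oligodendrocyte markers summed to 30.8 to 51.9 CPM in knockout and 0 to 51.1 CPM in wild type, mostly from Mbp. Neuron markers summed to 0 to 6.96 CPM in knockout and 0 to 0.176 CPM in wild type, with 158 reads of Rbfox3 in knockout library 1. Astrocyte markers summed to 0 to 0.864 CPM in knockout and 0 to 1.59 CPM in wild type. Monocyte markers summed to 0.152 to 6.91 CPM in knockout and 0.0477 to 0.529 CPM in wild type, and Ccr2 had 155, 3 and 93 reads in knockout and 1, 2 and 0 in wild type. The sum over 5 markers of border-associated macrophages was 0.254 to 10.2 CPM in knockout and 0.437 to 95.8 CPM in wild type, with the highest value in wild-type library 1. The sum over 2 red cell markers was 0.209 to 169 CPM in knockout and 0.0954 to 1.06 CPM in wild type. The part of such cells in the differences given here was not tested.

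Cst3 was the gene with the most reads in every one of the 6 libraries. It took 4.84%, 4.26% and 5.28% of all gene counts in knockout libraries 1 to 3 and 6.07%, 5.83% and 5.04% in wild-type libraries 1 to 3. The highest knockout share lay above the lowest wild-type share, so the genotypes overlapped. The 9 cathepsins together took 3.82%, 4.08% and 4.22% in knockout and 4.14%, 4.27% and 4.20% in wild type, and these ranges overlapped as well. Ctsd ranked 3 by counts in all knockout libraries and 4 in all wild-type libraries, and Ctss ranked 6 or 7 throughout. Summed, the 10 members accounted for 8.83 ± 0.597% of counts in knockout and 9.85 ± 0.527% in wild type (SD, n = 3 each). These are shares of sequenced reads after cDNA amplification, and molecules were not counted.

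**Figure D1:**
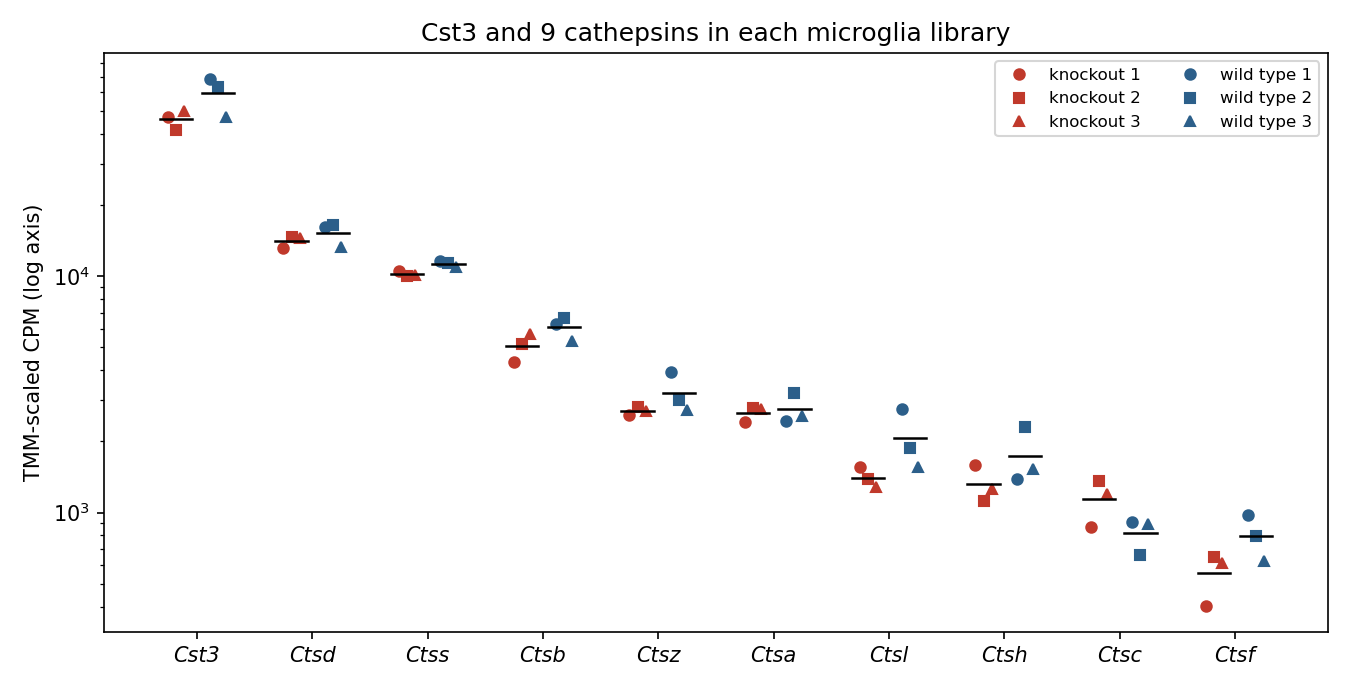
TMM-scaled CPM (log axis) of Cst3 and the 9 cathepsin genes in each library, knockout in red on the left of each gene and wild type in blue on the right, with bars at the mean of 3 libraries. Cst3 lies between 41578 and 68214 CPM, well above the next gene, Ctsd, and knockout and wild-type points overlap for all genes but Ctss.

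Per length of transcript, Cst3 also led. Divided by the length of its annotated exons, Cst3 stood at 36641 ± 3457 CPM per kilobase in knockout and 47097 ± 8694 in wild type (SD, n = 3 each). Ctss came next at 7524 ± 196 CPM per kilobase in knockout and 8339.9 ± 268 in wild type, and Ctsd followed at 5989 ± 355 in knockout and 6507 ± 756 in wild type. Over the 6 libraries the mean of Cst3 was 5.28 times that of Ctss, and the lowest Cst3 value, 32842 CPM per kilobase, lay above the highest Ctss value, 8558. Ctsz, Ctsb and Ctsa took the places below Ctsd, with means over all libraries of 2047, 920.4 and 570.4 CPM per kilobase, and in each of these steps all 6 libraries kept the order. The lower 4 were not separated in the same way. Ctsh, Ctsl, Ctsc and Ctsf had means of 340.0, 267, 169 and 134 CPM per kilobase, and the range of each overlapped that of the next.

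The order in the middle depended on how length was counted. Annotated exons of Ctsb cover 6051 bases and those of Ctsl 6489 bases, against coding lengths of 1017 and 1002 bases, since annotated exons include untranslated and alternative ones. With the coding length as divisor, Ctsd stood above Ctss in all 6 libraries. Their means over all libraries were 11943 and 10529 CPM per kilobase, with overlapping ranges. Ctsb then stood above Ctsz in all 6 libraries, at means of 5476 and 3213 CPM per kilobase with overlapping ranges. Ctsl stood above Ctsh in 4 of the 6 libraries, at means of 1729.7 and 1531. Cst3 had the top place and Ctsf the lowest with either length.

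**Figure D2:**
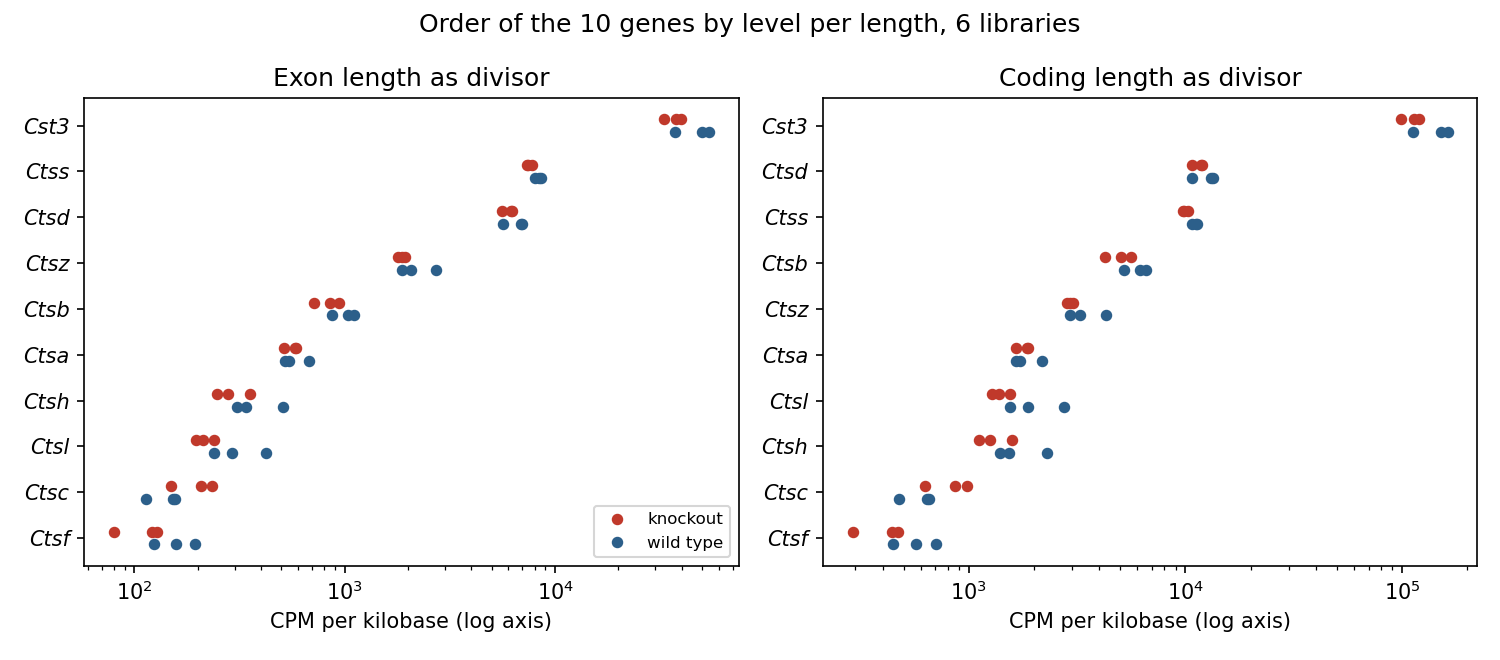
CPM per kilobase (log axis) of the 10 genes in 3 knockout libraries (red) and 3 wild-type libraries (blue), divided by exon length on the left and by coding length on the right, ordered from the highest mean at the top. Cst3 leads in both panels, while Ctss and Ctsd, Ctsz and Ctsb, and Ctsh and Ctsl exchange places.

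The RNA level of Cst3 was divided by the summed RNA level of the 7 cysteine cathepsins, both in CPM per kilobase of exons. Protein was not measured, so the ratio is of transcripts and not of inhibitor to enzyme. This ratio was 3.38, 2.99 and 3.58 in knockout libraries 1 to 3 and 4.02, 3.95 and 3.20 in wild-type libraries 1 to 3. Wild-type library 3 lay below knockout libraries 1 and 3, so the genotypes overlapped. The means were 3.32 ± 0.301 in knockout and 3.73 ± 0.454 in wild type (SD, n = 3 each). Ctss made up 0.681 ± 0.0153 of the cysteine cathepsin sum in knockout and 0.664 ± 0.0259 in wild type on the same scale, and 0.458 ± 0.0196 in knockout and 0.435 ± 0.0253 in wild type per kilobase of coding sequence. In raw shares of all counts, the 7 cysteine cathepsins took 2.23%, 2.30% and 2.41% in knockout libraries and 2.48%, 2.46% and 2.51% in wild-type libraries, and these ranges did not overlap. How often other genes or sums of genes separate on raw shares was not counted.

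**Figure D3:**
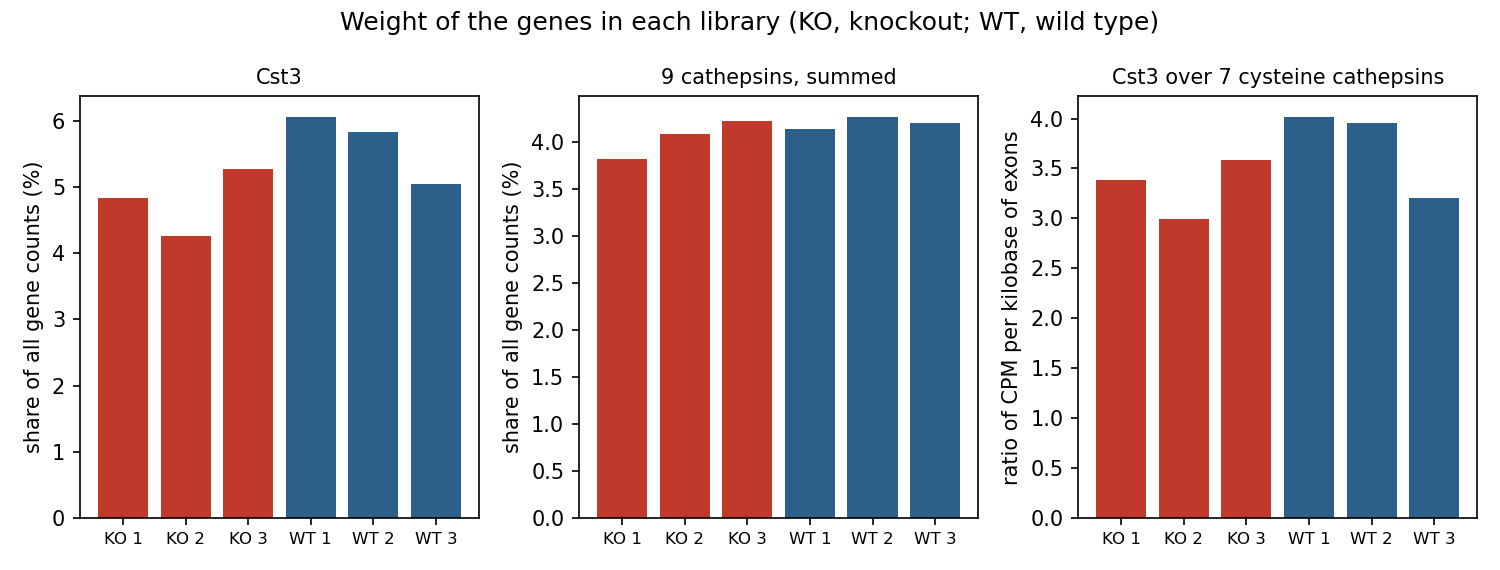
Share of all gene counts in percent for Cst3 (left) and for the 9 cathepsins summed (middle), and the ratio of Cst3 to the 7 cysteine cathepsins in CPM per kilobase of exons (right), 1 bar per library with knockout (KO) in red and wild type (WT) in blue. Wild-type libraries 1 and 2 have the highest Cst3 shares, 6.07% and 5.83%, and wild-type library 3 lies among the knockout libraries.

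Short stretches of the members' promoters show which DNA words lie next to their start sites. RefSeq windows on GRCm38.p6, from 250 bases before to 50 bases after the start, were found for 8 members, in 9 windows, and Ctsb and Ctsh had no entry. The word CACGTG is the core of the CLEAR element, which the lysosomal regulator TFEB reads. It was found in 4 of the 9 windows, those of Ctsa, Ctsd, Ctsf and Ctsl, and in 7.15% of all 32851 windows. Lyl1 belongs to a class of factors that bind E-boxes, CANNTG, in pairs with E proteins. The E-box CAGCTG was found in 4 of the 9 member windows, those of Cst3, Ctsa, Ctsd and Ctss, and in 16.3% of all windows. The E-box CAGATG, read as CATCTG on the other strand, was in 1 of the 9, that of Ctsa, and in 17.2% of all. Both E-box words were chosen after the windows were read, so their shares are a description and no test. A match is a string of letters and not a measured binding site. Starts are those of RefSeq, some of which lie inside the annotated gene, and the printed site of Ctsl, the CACGTG of Ctsa and the Ctsd sites, except the one farthest from its start, fall within annotated exons. Windows of up to 30 bases around single matches are printed here, 5′ to 3′ on the gene's strand, with the word in capitals, to show these words in their surroundings.
Ctsd, chr7:142387908-142387937, 98 bases before the start: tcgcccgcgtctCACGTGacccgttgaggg
Ctsd, chr7:142388055-142388077, 245 bases before: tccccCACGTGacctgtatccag
Ctsa, chr2:164833749-164833778, 12 bases before its downstream start: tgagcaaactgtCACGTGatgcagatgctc
Ctsf, chr19:4855074-4855103, 79 bases before: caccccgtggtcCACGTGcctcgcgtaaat
Ctsl, chr13:64370739-64370768, 236 bases before: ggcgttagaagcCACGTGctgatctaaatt
Cst3, chr2:148875583-148875612, 88 bases before: agaacagactagCAGCTGactgaagcagag
Ctsd, chr7:142387876-142387905, 66 bases before: aaacaagcgggtCAGCTGactccgcgggac
Ctss, chr3:95526728-95526757, 46 bases before: agagggcggaggCAGCTGttctcataagtc
Ctsa, chr2:164832762-164832791, 98 bases before its upstream start: agaggggctgagCAGCTGgcagcccccggg

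For Ctss, the member with the least spread between libraries, the 150 bases before the start lie outside annotated exons and are given whole, chr3:95526636-95526785 on the plus strand, with CAGCTG in capitals.
Ctss: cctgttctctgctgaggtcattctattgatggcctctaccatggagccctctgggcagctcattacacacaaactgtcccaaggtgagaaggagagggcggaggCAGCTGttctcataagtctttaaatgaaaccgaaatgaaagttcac

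No member passed the threshold for a difference between knockout and wild type. edgeR's quasi-likelihood test called 0 of the 10 members and 0 of 10394 genes, 0% of all, and every member had adjusted p = 0.9999. Lyl1 itself was not called either, at 9.03, 12.0 and 14.3 CPM in knockout and 60.2, 55.6 and 40.0 CPM in wild type. Over all genes tested, the common coefficient of variation that edgeR estimated between libraries was 1.27. The members varied less, with a median coefficient of variation of 9.70% in knockout and 17.6% in wild type. Standard errors of their log2 fold changes ran from 0.09 (Ctss) to 0.27 (Ctsf). A lack of calls does not show that levels were equal. At an unadjusted edgeR p under 0.05, 121 genes were higher and 174 were lower, while limma-voom called 0 genes and DESeq2 called 137, none of them a member. Of the members 9 had a negative log2 fold change and 1 a positive one, with a median of -0.26, and 7 were negative with upper-quartile scaling, while 51.3% of all genes tested were negative with a median of -0.03. Upper-quartile scaling moved the median of all genes by 0.12, and 9 members lay below that median in it as well. Of the 237 genes tested at a mean of 500 CPM or more, the 10 members included, 62.0% were negative with a median of -0.11. At an unadjusted p under 0.05 there were 2 lower members, Cst3 and Ctsl, where 1.67% of all genes tested, and 25 of the 237 at 500 CPM or more, were lower by that rule. In 1 member, Ctss, all knockout libraries lay below all wild-type libraries, as in 5.19% of all genes tested and in 33 of the 237. Bulk libraries cannot tell fewer cells with a transcript from less of it per cell.

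Cst3 (ENSMUSG00000027447.6, GRCm38 chromosome 2, 148871722 to 148875692, minus strand, 4 exon blocks) was at 47448, 41578 and 50137 CPM in knockout libraries 1 to 3 and at 68214, 63443 and 47218 CPM in wild-type libraries 1 to 3. Wild-type library 3 lay among the knockout libraries, and wild-type libraries 1 and 2 were the highest of all. The log2 fold change was -0.36 ± 0.14 (standard error), at an unadjusted edgeR p of 0.0347. It was -0.20 with upper-quartile scaling, -0.24 with library size alone and -0.18 with limma-voom. It was -0.24 without wild-type library 1, -0.29 without wild-type library 2 and -0.50 without wild-type library 3. Among the 1747 genes at 100 CPM or more, Cd37 and Fam105a had the profile over the 6 libraries closest to that of Cst3, with root mean square distances of 0.0469 and 0.0798 between centred log2 levels.

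Ctss (ENSMUSG00000038642.10, chromosome 3, 95526786 to 95556403, plus strand, 8 exon blocks) encodes a cysteine endopeptidase that stays active at neutral pH and cleaves the invariant chain of MHC class II. It was at 10519.8, 10018.6 and 10113 CPM in knockout and 11621, 11437 and 10918 CPM in wild type, with no overlap. The spread within a genotype was small, with a coefficient of variation of 2.61% in knockout and 3.22% in wild type. Between genotypes the log2 fold change was -0.15 ± 0.09 (standard error), at an unadjusted edgeR p of 0.128. The separation was not seen without scaling between libraries. As a share of all counts Ctss took 1.07%, 1.03% and 1.06% in knockout and 1.03%, 1.05% and 1.17% in wild type, which overlap, and the log2 fold change was -0.01 with upper-quartile scaling and -0.04 with library size alone. Its profile was close to that of Lgmn, the legumain gene, at a distance of 0.0764.

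Ctsb (ENSMUSG00000021939.8, chromosome 14, 63122462 to 63145923, plus strand, 10 exon blocks) encodes an enzyme that acts as an endopeptidase and also removes dipeptides from the carboxyl end. It was at 4319, 5145 and 5700.2 CPM in knockout and at 6279, 6676 and 5297 CPM in wild type. Wild-type library 3 again lay inside the knockout range. Its log2 fold change was -0.27 ± 0.15 (standard error), and it was -0.17 without knockout library 1 and -0.17 without wild-type library 2. Spi1, which encodes the macrophage transcription factor PU.1, had the nearest profile, at a distance of 0.0505. Of the annotated exon bases of Ctsb, 12.8% are shared with Fdft1 on the opposite strand.

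Ctsl (ENSMUSG00000021477.9, chromosome 13, 64359337 to 64370890, minus strand, 10 exon blocks) encodes a lysosomal endopeptidase. It was at 1553.5, 1379.7 and 1277 CPM in knockout and at 2755, 1883 and 1551 CPM in wild type, so that only knockout library 1 and wild-type library 3 met. The log2 fold change was -0.56 ± 0.23 (standard error), at an unadjusted edgeR p of 0.0429. Without wild-type library 1, the highest, the log2 fold change was -0.28. As shares of all counts the genotypes did not overlap, at 0.159%, 0.141% and 0.134% in knockout and 0.245%, 0.173% and 0.166% in wild type. Every other member overlapped on that scale, and the part of all genes that separates on it was not counted. An antisense gene model, Gm47123, shares 26.8% of the annotated exon bases of Ctsl, and a processed pseudogene on its own strand shares 6.09%, so that its count is uncertain. Cox6b1 and Hp1bp3 had the closest profiles to Ctsl, at distances of 0.101 and 0.117.

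Ctsf (ENSMUSG00000083282.3, chromosome 19, 4855130 to 4860918, plus strand, 6 exon blocks) encodes a papain-like protease with a long propeptide. It had the lowest level of the members, 404, 650.1 and 611 CPM in knockout and 976, 794 and 623 CPM in wild type. Knockout library 1 was the lowest and knockout library 2 lay above wild-type library 3. The log2 fold change of Ctsf was -0.52 ± 0.27 (standard error), and it was -0.34 without knockout library 1 and -0.34 without wild-type library 1. Its nearest profile was that of Gnai2, at a distance of 0.0590, and then that of Lat2, at 0.0801.

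Ctsc, Ctsh and Ctsz, the cysteine cathepsins that act mainly as exopeptidases, differed in direction. Ctsc (ENSMUSG00000030560.17, chromosome 7, 88278085 to 88310888, plus strand, 9 exon blocks) encodes dipeptidyl peptidase 1, which activates granule serine proteases of immune cells. It was at 867, 1354 and 1202 CPM in knockout and at 909.8, 663 and 890.1 CPM in wild type, and was the one member with a positive log2 fold change, 0.48 with a standard error of 0.23. Knockout library 1 lay within the wild-type range and knockout libraries 2 and 3 above it. The unadjusted edgeR p was 0.0755, and the value stayed positive, from 0.35 to 0.68, in all 17 alternative fits. Lgals9 and Dnm2 had the closest profiles to Ctsc, at distances of 0.161 and 0.162.

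Ctsh (ENSMUSG00000032359.14, chromosome 9, 90054152 to 90076089, plus strand, 14 exon blocks), an aminopeptidase, was at 1590.1, 1114 and 1252 CPM in knockout and at 1392, 2295 and 1535 CPM in wild type. Wild-type library 2 was the highest, and the log2 fold change was -0.40 ± 0.24 (standard error) in all libraries and -0.13 without that library. The closest profiles to Ctsh were those of Lamtor1 and Psmb8, at distances of 0.0918 and 0.0958. Ctsz (ENSMUSG00000016256.10, chromosome 2, 174427493 to 174439039, minus strand, 6 exon blocks), a carboxypeptidase, was at 2596, 2789.5 and 2689 CPM in knockout and at 3927, 2992 and 2704 CPM in wild type. Here wild-type library 1 stood apart, and the log2 fold change was -0.25 ± 0.16 with it and -0.07 without it. Knockout library 2 of Ctsz lay above wild-type library 3, so the genotypes overlapped. Serinc3 and Abi3 were nearest to Ctsz in profile, at distances of 0.0712 and 0.0789.

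Ctsd and Ctsa are the members that cystatin C does not inhibit. Ctsd (ENSMUSG00000007891.16, chromosome 7, 142375911 to 142388038, minus strand, 9 exon blocks), the lysosomal aspartic protease, was at 13121, 14632 and 14488 CPM in knockout and at 16185, 16458 and 13253 CPM in wild type. The log2 fold change was -0.12 ± 0.11 (standard error), and it was 0.03 with upper-quartile scaling. Fcgr3 and Rbm5 were nearest to Ctsd in profile, at distances of 0.0538 and 0.0566. Another protein-coding gene model on the same strand, Gm49369, shares 34.4% of its annotated exon bases, so that its count is uncertain. Ctsa (ENSMUSG00000017760.16, chromosome 2, 164832873 to 164841032, plus strand, 13 exon blocks) encodes protective protein, which holds beta-galactosidase and neuraminidase 1 together in the lysosome. It was at 2427, 2774 and 2729.9 CPM in knockout and at 2448, 3204.5 and 2553 CPM in wild type. For Ctsa the log2 fold change was -0.05 ± 0.15, and its sign turned in 5 of 17 alternative fits. The nearest profiles to Ctsa were those of M6pr, a receptor that carries lysosomal enzymes, and Csf1r, at distances of 0.0780 and 0.0901.

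**Figure D4:**
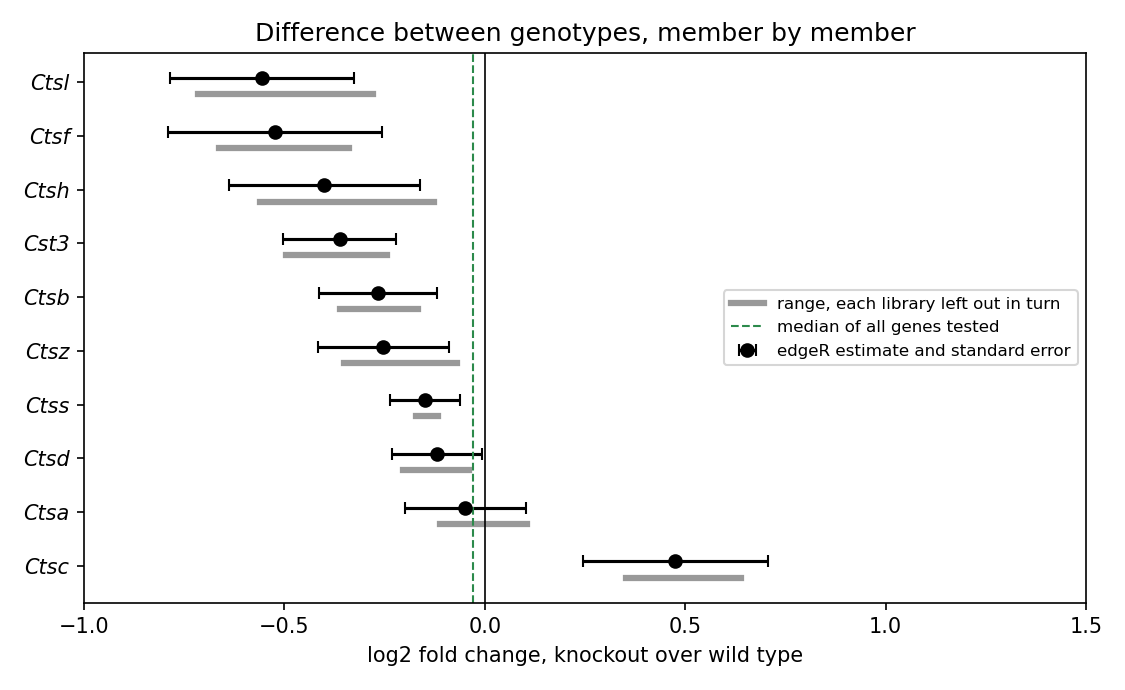
Log2 fold change of each member, knockout over wild type, from edgeR (points) with its standard error (bars), and in grey the range of the estimate when each of the 6 libraries was left out in turn. The dashed line marks the median of all genes tested, -0.03, and 9 of 10 points lie to the left of it while Ctsc lies at 0.48.

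The libraries were also divided by the number of genes detected, as a description only. Among the libraries with more genes, knockout libraries 2 and 3 and wild-type library 3, the mean CPM was lower in knockout for 4 of 10 members, with log2 ratios of -0.04 for Cst3, -0.22 for Ctsl and -0.12 for Ctss. Among the others, knockout library 1 and wild-type libraries 1 and 2, it was lower for 9 of 10, with -0.47 for Cst3, -0.58 for Ctsl and -0.13 for Ctss. Each side holds only 1 library of a genotype, so neither was tested, and a difference between the sides cannot be read from them. The part of all genes lower on each side was not counted. In the 4 libraries with low Xist, knockout library 2 and all wild-type libraries, 8 of 10 members were lower, with log2 ratios of -0.52 for Cst3 and 0.72 for Ctsc. These ratios rest on 1 knockout library and were not tested, and the part of all genes lower was not counted. With the number of genes detected as a covariate in edgeR, 9 members were lower and 0 were called, with log2 fold changes of -0.28 for Cst3 and -0.43 for Ctsl. With the Xist level as a covariate 8 were lower and 0 were called, with -0.52 for Cst3 and -0.61 for Ctsl. In that fit the median of all genes was itself -0.27, against -0.24 for the members, and only 4 of 10 members lay below it. The median coefficient of variation within a genotype was smaller for the members than for the other genes at 500 CPM or more. It was 9.70% against 14.1% in knockout and 17.6% against 21.3% in wild type. Single members ran from 2.61% (Ctss) to 23.9% (Ctsf) in knockout and from 3.22% (Ctss) to 30.1% (Ctsl) in wild type. Members and other genes were not matched for level.

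Other genes of the cathepsin pathway were also not called. Of 71 listed genes in 5 lists, all were in the table, 33 had no read in any library and 31 were tested, of which 13 were higher, 18 lower, 0 called and 0 at an unadjusted edgeR p under 0.05. Their median log2 fold change was -0.06, against -0.03 over all genes tested. In 2 of the 31, Cstb and Cd74, all knockout libraries lay below all wild-type libraries, as in 5.19% of all genes tested.

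Most other cathepsins were not detected. Of 14 listed, 10 had no read in any library, among them Ctsk of osteoclasts and Ctsg of neutrophils. A count of 0 allows up to 3 reads, 0.104 to 0.264 CPM per library, and this covers counting error only. Several of the 14 are near copies of one another, and how the counting treated reads shared by copies is not given in the sources used here. Ctso, a lysosomal cysteine protease, was the one tested, at 170, 130.2 and 195 CPM in knockout and 23.6, 190.5 and 187 CPM in wild type. Wild-type library 1 stood far below the rest. Ctsw, a cathepsin of cytotoxic lymphocytes named here after its values were seen, had 284 reads in knockout library 3 and 0 in the other 5 libraries, while of 3 T and NK cell markers Cd3e and Nkg7 had no read in any library and Cd8a had 2 reads, both in that knockout library.

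Cst3 had by far the most reads among the cystatins. Of 21 other inhibitors, 15 had no read and 5 were tested, 4 of them lower and 1 higher, and their median was -0.82 on the log2 scale. Cstb, the intracellular inhibitor stefin B, was at 73.6, 31.4 and 69.0 CPM in knockout and at 177, 101 and 94.8 CPM in wild type. Every knockout library of Cstb lay below every wild-type library, as in 5.19% of all genes tested. The log2 fold change of Cstb was -1.10 ± 0.57 (standard error, unadjusted edgeR p of 0.0938). Cst7, or cystatin F, which blocks Ctsc in immune cells and was named here after its values were seen, was at 0.0440, 14.4 and 24.6 CPM in knockout and at 49.1, 0 and 19.7 CPM in wild type. Its libraries did not sort by genotype, and those of Serpinb9 (67.3, 32.6 and 13.6 CPM in knockout, 166, 0.0795 and 16.0 in wild type) did not either. Serpinb6a and Ctla2b had log2 fold changes of -0.82 ± 2.32 and 1.10 ± 1.70 (standard error).

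Genes that activate, carry or accompany cathepsins were close to even. Of 17 listed, 16 were tested, 10 of them lower and 6 higher, and their median was -0.06 on the log2 scale. Lgmn, which encodes the asparaginyl endopeptidase that processes cathepsin precursors, had the highest CPM of the list, at 5516, 5846 and 5755 CPM in knockout and at 5815, 6248 and 5691 CPM in wild type. These values overlapped, with a log2 fold change of -0.05 ± 0.10 (standard error). Grn, the progranulin gene, whose product binds Ctsd, was at 3200.1 ± 271 CPM in knockout and 2748 ± 307 CPM in wild type (SD, n = 3 each), a log2 fold change of 0.22 ± 0.14. Gnptg, a subunit of the enzyme that starts the mannose 6-phosphate tag, was at 64.6 ± 36.7 CPM in knockout and 129 ± 41.0 CPM in wild type (SD, n = 3 each). In the same list, the log2 fold change of the sorting receptor gene Sorl1 was -1.73 ± 1.25 and that of the lysosomal membrane gene Scarb2 -0.30 ± 0.25 (standard error). For the partners of Ctsa, named here after their values were seen, the log2 fold changes were 0.38 ± 1.13 for Glb1 and -0.03 ± 0.57 for Neu1. Igf2r, the other mannose 6-phosphate receptor, had 2 reads or fewer in each library, while M6pr was at 359 ± 37.6 CPM in knockout and 337 ± 40.0 CPM in wild type (SD, n = 3 each).

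The list of class II antigen processing, in which Ctss takes part, was mixed in direction. Of 11 listed, 9 were tested, 5 higher and 4 lower, and their median was 0.23 on the log2 scale. Cd74, the invariant chain cleaved by Ctss, was at 0.396, 21.9 and 54.6 CPM in knockout and at 141, 91.7 and 91.1 CPM in wild type. Every knockout library of Cd74 lay below every wild-type library, as in 5.19% of all genes tested. The knockout libraries differed widely, with a log2 fold change of -2.07 ± 1.32 (standard error) and an unadjusted edgeR p of 0.156. Ifi30, a lysosomal thiol reductase, had a log2 fold change of 0.63 ± 0.43, H2-Oa -0.97 ± 0.87 and H2-Ab1 1.28 ± 1.64. H2-DMa, with the highest CPM of the list, was at 317 ± 68.5 CPM in knockout and 336 ± 62.1 CPM in wild type (SD, n = 3 each). None of the 9 granule serine proteases that Ctsc can activate, Elane, Prtn3, Gzma and Gzmb among them, had a read in any library.

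**Figure D5:**
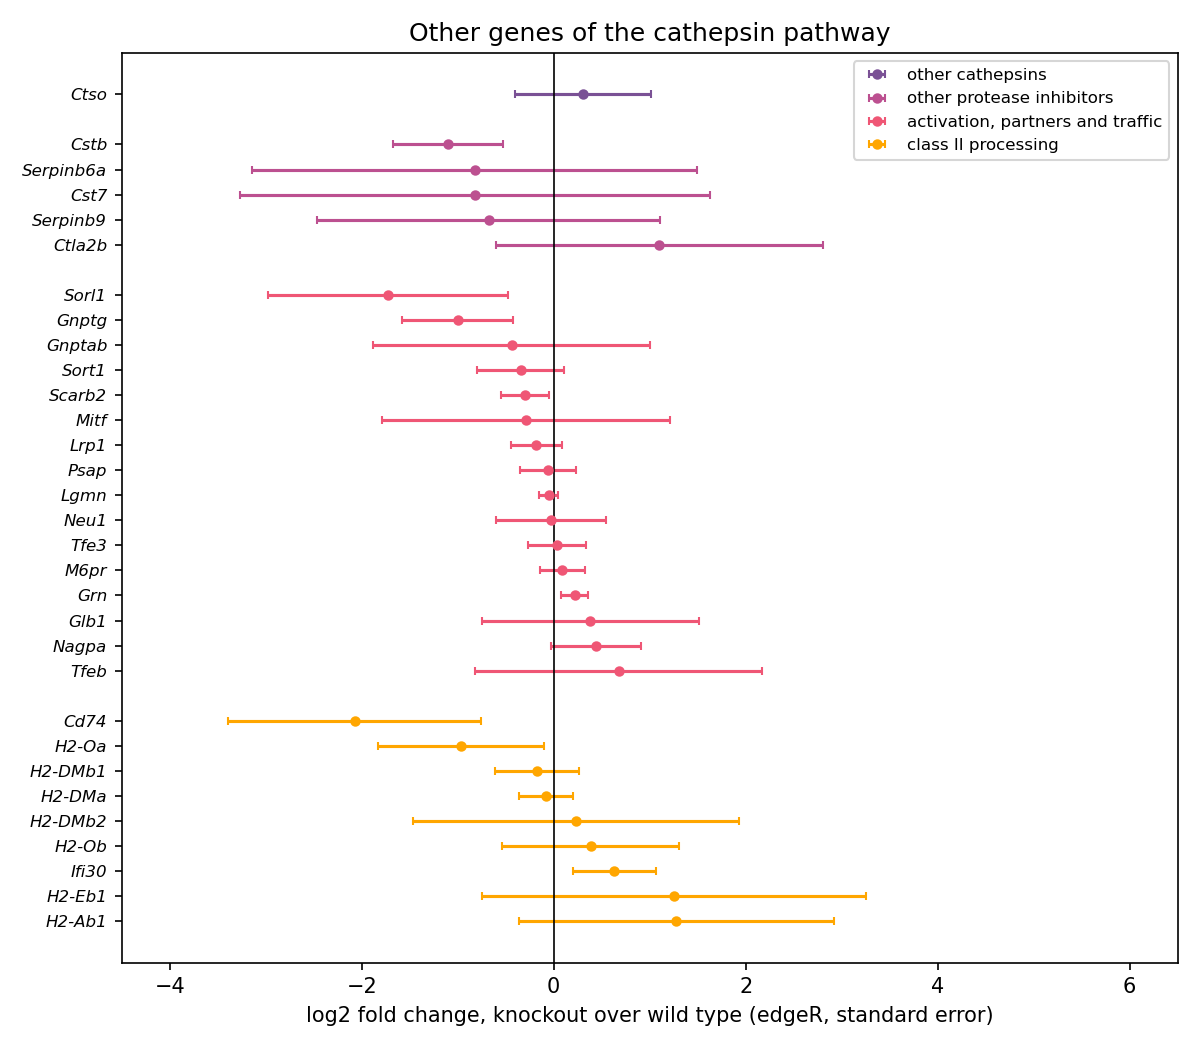
Log2 fold change, knockout over wild type, with its standard error for the 31 tested genes of the pathway lists, grouped by list and ordered within each. Abundant genes such as Lgmn and Grn have short bars near 0, and Cd74, Sorl1, Cstb and Gnptg lie farthest to the left among genes with bars that stop short of 0.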

How the data were processed

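For 3 knockout and 3 wild-type microglia libraries, the authors deposited unnormalized read counts, 1 row per gene symbol. GRCm38, featureCounts 1.5.1, Subread, STAR 2.5.2b, limma 3.28.21 and CASAVA 1.8.2 appear, without roles, in the submitters' processing notes. Which annotation was counted, and whether strand was used, is not given in the sources used here. Per the labels' protocols, cDNA was made with a SMARTer kit, which does not mark strand, and amplified without molecular identifiers.

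The 92 spike-in entries were left out. Of 48587 genes, 22005 had a read and 10394 passed filterByExpr (minimum count 10, minimum total 15). edgeR 4.0.16 in R 4.3.3 was fitted across all of these genes with TMM scaling and legacy dispersions, genotype alone in the fit, and Benjamini-Hochberg adjustment with a threshold of 0.05. Alternatives used DESeq2 1.42.0 and limma 3.58.1. The code was tested on data simulated with far less spread between libraries than in these data. Levels are TMM-scaled CPM, and profile distances use log2(CPM + 1). Exon and coding lengths come from GENCODE M21, and promoter windows from RefSeq.

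The members and lists were chosen with earlier results of these data known. Named were all members, then from each list the 4 tested genes with the smallest p and the most abundant one. For each member, the 2 closest profiles among genes at 100 CPM or more were sought, and some of these are not reported here. The words CAGCTG and CAGATG were chosen after the windows were read. Replicate numbers were not used to pair the libraries in the main fit.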

Additional observations from a re-analysis of the deposited data

How the results depend on the processing

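Across 17 alternative fits, 0 of the 10 members and 0 of the tested pathway genes were called. Over all genes the count of calls was 8 with no filter (3 higher, 5 lower) and 137 with DESeq2 on all genes with a read (97 higher, 40 lower), and 0 in the others. The cause was not tested. Of 170 member values, 6 changed sign: with upper-quartile scaling Ctsd was at 0.0326 and Ctsa at 0.0919, and Ctsa was at 0.0622 with library size alone, 0.0251 with the Xist level as a covariate, 0.01 without knockout replicate 1 and 0.10 without wild-type replicate 2. Leaving out each library in turn gave log2 fold changes of -0.50 to -0.24 for Cst3, -0.71 to -0.28 for Ctsl, -0.66 to -0.34 for Ctsf, -0.36 to -0.17 for Ctsb, -0.17 to -0.12 for Ctss, 0.35 to 0.64 for Ctsc, -0.35 to -0.07 for Ctsz, -0.56 to -0.13 for Ctsh, -0.20 to -0.04 for Ctsd and -0.11 to 0.10 for Ctsa, with 8 or 9 members lower. With the Xist covariate 4 members lay below the median of all genes, against 9 without it.

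Dividing by coding length in place of exon length gave means in CPM per kilobase of 126205 for Cst3, 11943 for Ctsd, 10529 for Ctss, 5476 for Ctsb, 3213 for Ctsz, 1822 for Ctsa, 1729.7 for Ctsl, 1531 for Ctsh, 708 for Ctsc and 488 for Ctsf, all higher by construction since coding length is the shorter. The ratio of Cst3 to the cysteine cathepsins was 3.52 per kilobase of exons over all libraries, 5.29 per kilobase of coding sequence and 2.17 on CPM without length. The same replicate numbers had correlations of 0.0144, -0.00288 and 0.0327 between knockout and wild type. Such correlations, from 3 libraries per genotype, cannot show whether the libraries were paired. With the replicate block 0 genes were called, 9 members were lower and Cst3 was at -0.35 with an unadjusted edgeR p of 0.0535. With edgeR's newer dispersions, chosen after seeing the data, Cst3 had an unadjusted p of 0.00297 and 0 genes were called. The lowest count of a member in any library was 9166 reads.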
